A study of Mus musculus with 9 samples.

Results

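Oral tumors of mice that carry the missense allele p53R172H over a null allele (p53R172H/-) were compared with oral tumors that carry it over a wild-type allele (p53R172H/+), which asks what differs with the second p53 allele. The 6 tumors, 3 of each genotype, were taken by their labelled genotype from a series of 9, and the remaining 3, with p53 lost (p53-/-), are given beside them. Each tumor was hybridised to 1 Affymetrix expression array. Per the series' title all tumors were induced by Ras activation as well, so activated Ras is shared by every group, and all mice were 1 year old. The labels give the mouse names a prefix K- that they do not spell out, and the promoter or Cre that drives the alleles is not stated in the sources used here. Whether the p53R172H/+ tumors had kept their wild-type allele was not checked, and since no label states that each tumor is from its own mouse, a p-value here weighs differences only against the spread among these tumors, which may in part be technical.

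p53 is a transcription factor that acts as a tetramer and switches on genes of cell cycle arrest, repair and death. The R172H change unfolds its DNA-binding domain, and mutant subunits can join wild-type subunits in mixed tetramers, so a wild-type allele beside a mutant one may keep only part of its activity and is often lost in tumors. One of the target genes of p53 encodes the cell cycle inhibitor p21, which lets the DREAM repressor complex hold down genes of mitosis, often through a short promoter element called the CHR. Collagens and other matrix genes are expressed mostly by fibroblasts of the stroma around carcinoma cells.

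The keratin genes Krt5 and Krt14, markers of squamous epithelium, were at high and even levels in the tumors. Krt5, a keratin of basal keratinocytes, was at 13213, 11011 and 11486 signal units in p53R172H/- tumors 1 to 3 and at 11236, 12152 and 11474 in p53R172H/+ tumors, a log2 difference of 0.03 ± 0.08 (SE), where every difference in the text is p53R172H/- minus p53R172H/+ unless said otherwise. Krt14, its partner keratin, was at 22692, 20662 and 21205 against 21661, 22588 and 21292 signal units (-0.02 ± 0.06 SE). Array medians ran from 109 to 123 signal units, and neither the medians (exact permutation test, two-sided, p = 1) nor the 3' to 5' ratio of the Gapdh control probe sets, a measure of RNA integrity (p = 0.7, exact permutation test), differed beyond the spread of the tumors, where 3 against 3 cannot give a p under 0.1. The 3 measured Y-linked genes overlapped between the groups, and Eif2s3y, a translation factor subunit encoded on the Y chromosome, was at 384 to 1041 signal units on the 9 arrays. The content of muscle and hair tissue differed widely within groups. The mean log2 signal of 23 skeletal muscle genes was 6.74, 10.05 and 9.15 in p53R172H/- tumors 1 to 3 and 7.29, 6.59 and 8.18 in p53R172H/+ tumors 1 to 3, and that of 22 hair keratin and associated genes was 7.37, 10.38 and 9.36 against 8.40, 7.19 and 9.03. The lowest of their groups in both lists were thus p53R172H/- tumor 1 and p53R172H/+ tumor 2, and counts without these 2 tumors, an alternative chosen after seeing the data, are given beside the leading results. This alternative does not even out muscle and hair between the groups: without these tumors the muscle list's median difference was 2.67, and 18 of its 23 members were higher without overlap (20.3% of all genes then).

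In limma's test over 12167 genes, 0 (0.00%) had an adjusted p under 0.05, and the smallest adjusted p was 0.452. At an unadjusted p under 0.05 there were 603 genes (4.96%), of which 243 were higher in p53R172H/- tumors (2.00%) and 360 lower (2.96%). All 3 p53R172H/- tumors lay above or below all 3 p53R172H/+ tumors for 1447 genes (11.9%), with 641 higher (5.27%) and 806 lower (6.62%). An absolute log2 difference over 1 was seen in 100 genes (0.822%). Of these, 85 were higher in p53R172H/- tumors, of which 1 was without overlap between the groups, and 15 were lower, of which 10 were without overlap. No difference is therefore called here, and single genes and gene lists are described by their values, their counts without overlap, and the same counts over all genes tested.

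**Figure D1:**
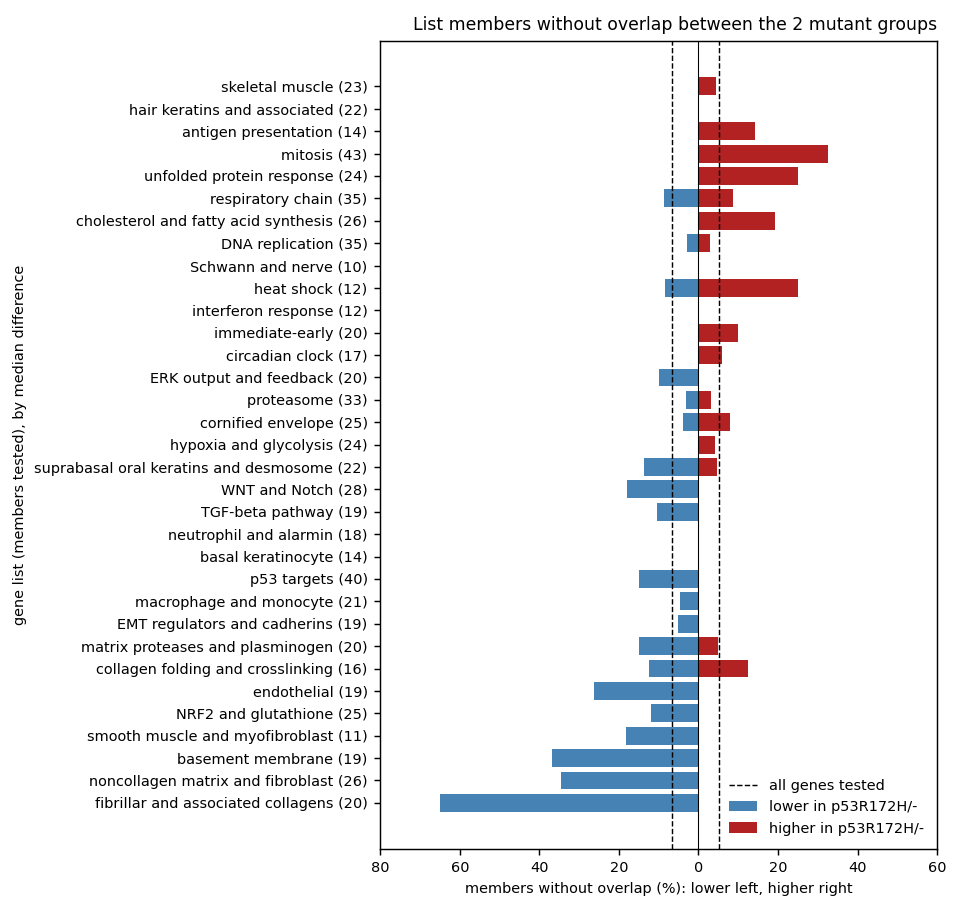
Share of the measured members of each gene list for which all p53R172H/- tumors lay below (blue, to the left) or above (red, to the right) all p53R172H/+ tumors, in percent. Lists run from the highest median log2 difference (top) to the lowest, with the number of members tested in brackets, and dashed lines mark the shares over all 12167 genes, 6.62% lower and 5.27% higher. Collagens reach 65% to the left and mitosis genes 32.6% to the right.

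The stretches of mitotic gene promoters shown here hold CHR-like hexamers, the element named above. They are given for the mitosis genes with an unadjusted p under 0.05, 8 genes in all, since these genes were higher in all p53R172H/- tumors than in all p53R172H/+ tumors. Each of the 8 had a RefSeq promoter window (build GRCm38.p6, 250 bases before to 50 bases after the annotated start), and in 7 of them, all but that of Nusap1, a hexamer was found. The search took in TTTGAA as the canonical form, its reverse complement, which reads TTCAAA on the shown strand, and the variant form with CG in the middle, TTCGAA, which reads the same on both strands. Each sequence is 80 bases long, 5′ to 3′ along its gene, and the match nearest to the start is in capitals.
Mki67 (chr7:135716435-135716514, minus strand, hexamer 98 bases before the start): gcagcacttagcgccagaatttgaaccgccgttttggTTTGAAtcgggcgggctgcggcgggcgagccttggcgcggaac
Top2a (chr11:99024170-99024249, minus strand, 23 bases before the start): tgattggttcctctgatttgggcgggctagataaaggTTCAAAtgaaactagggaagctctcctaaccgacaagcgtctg
Ccnb2 (chr9:70421508-70421587, minus strand, 5 bases after the start): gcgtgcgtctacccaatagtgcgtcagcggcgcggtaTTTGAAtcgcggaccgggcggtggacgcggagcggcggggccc
Cdca8 (chr4:124936868-124936947, minus strand, 14 bases after the start): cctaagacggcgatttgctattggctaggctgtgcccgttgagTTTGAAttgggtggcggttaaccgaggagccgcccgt
Anln (chr9:22389157-22389236, minus strand, 22 bases after the start): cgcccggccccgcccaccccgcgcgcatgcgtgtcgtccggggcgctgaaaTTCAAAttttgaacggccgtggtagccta
Cenpf (chr1:189688042-189688121, minus strand, 3 bases after the start): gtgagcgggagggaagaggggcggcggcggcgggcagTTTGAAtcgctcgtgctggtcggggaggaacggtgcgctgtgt
Kif23 (chr9:61946755-61946834, minus strand, 3 bases after the start): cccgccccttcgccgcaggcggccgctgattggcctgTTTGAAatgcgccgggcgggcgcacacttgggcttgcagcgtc
Over the whole mitosis list, 27 of the 35 genes with a window held a hexamer (77.1%), against 7 of 29 DNA replication genes (24.1%), 3 of 15 collagen genes (20%), 5 of 31 p53 target genes (16.1%) and 5854 of all 27025 genes in the table (21.7%). These letters describe the promoters and do not show that any factor was bound there in these tumors.

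Mitosis genes were higher in the p53R172H/- tumors. Of 43 measured members of the list, 41 were higher on average, where 48.0% of all genes were, and 14 were higher without overlap (32.6%, against 5.27% of all genes) and 0 lower. The median log2 difference was 0.23, against -0.01 over all genes. The mean log2 signal of the list was 8.94, 8.71 and 8.79 in p53R172H/- tumors and 8.70, 8.48 and 8.58 in p53R172H/+ tumors, with the lowest of the first group just above the highest of the second. In p53-/- tumors it was 8.49, 8.22 and 8.23. Against the p53-/- tumors, which both comparisons share, the list's median was 0.56 for p53R172H/- and 0.26 for p53R172H/+ tumors.

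Mki67, the proliferation marker that encodes Ki-67, was at 1180, 1195 and 1205 signal units in p53R172H/- tumors and at 900, 778 and 860 in p53R172H/+ tumors. The 3 tumors of the first group lay close together and all above the second group, 1.41-fold on average (log2 difference 0.50 ± 0.15 SE, adjusted p = 0.927, limma). The p53-/- tumors, at 1055, 674 and 794, spanned the p53R172H/+ level. Top2a, the DNA topoisomerase of dividing cells, was at 1380, 1231 and 1447 against 1166, 864 and 954 (0.45 ± 0.14 SE), although 1 of its 2 other probe sets, dim at a mean of 77.2 signal units, was at -0.12. Ccnb2, which encodes the mitotic cyclin B2, was at 736, 738 and 713 against 615, 457 and 566 (0.43 ± 0.15 SE). Its p53-/- tumors, at 469, 364 and 332, were below the p53R172H/- tumors and overlapped the p53R172H/+ tumors.

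The other 5 genes with a p under 0.05 act in spindle assembly and cytokinesis. Nusap1, a microtubule-binding spindle protein, was at 391, 487 and 384 signal units against 357, 275 and 292 (0.45 ± 0.16 SE), and another probe set showed no difference (0.00). Cdca8, the borealin subunit of the chromosomal passenger complex, was at 979, 693 and 818 against 676, 618 and 552 (0.42 ± 0.15 SE). Cenpf, a kinetochore protein, was at 315, 328 and 300 against 275, 226 and 215 (0.40 ± 0.15 SE, with other probe sets at 0.15 and -0.07). In each of them the groups were apart by less than the range within the p53R172H/+ group. Anln, the cytokinesis scaffold anillin, was at 987, 1001 and 961 against 847, 685 and 758 (0.37 ± 0.13 SE). Kif23, a kinesin of the central spindle, was at 456, 353 and 430 against 348, 309 and 318 (0.34 ± 0.13 SE). Both kept the order seen for Mki67, with all p53R172H/- tumors above all others of the 9. Unlike for Mki67, the groups were again apart by less than the range within the p53R172H/+ group. For Kif23 the nearest values were 353 and 348. The 2 members lower on average were Kif2c (-0.26 ± 0.20 SE) and Hmmr (-0.01 ± 0.12 SE), whose groups overlapped and whose other probe sets, 3 and 4 in number, were all higher.

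These differences depended on single tumors in size. Without p53R172H/- tumor 1 the list's median was 0.14, with 39 of 43 members higher. The count without overlap was 30 without p53R172H/- tumor 2 (8.96% of all genes then) and 25 without p53R172H/+ tumor 1 (9.54%). Without p53R172H/- tumor 1 and p53R172H/+ tumor 2 together, 35 of 43 members were higher, 15 without overlap (20.3% of all genes then), and the median was 0.09. Of 35 DNA replication genes, which work in the S phase before mitosis, 1 was without overlap in each direction. That is 2.86%, against 5.27% higher and 6.62% lower of all genes. On average 25 of the 35 were higher and 10 lower, with a median of 0.06. This turned with single tumors. With p53R172H/- tumor 1 left out, 12 were higher and 23 lower, with a median of -0.03. With p53R172H/+ tumor 2 left out as well, 8 were higher and 27 lower, 7 of these without overlap (18.0% of all genes then), with a median of -0.10. When p53R172H/- tumor 2 alone was left out, 31 were higher, 11 without overlap (8.96%), with a median of 0.15. Ccnd1, the G1 cyclin D1, was at 2430, 1582 and 1826 against 2048, 2471 and 1546 signal units, with overlapping groups (-0.05 ± 0.20 SE).

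**Figure D2:**
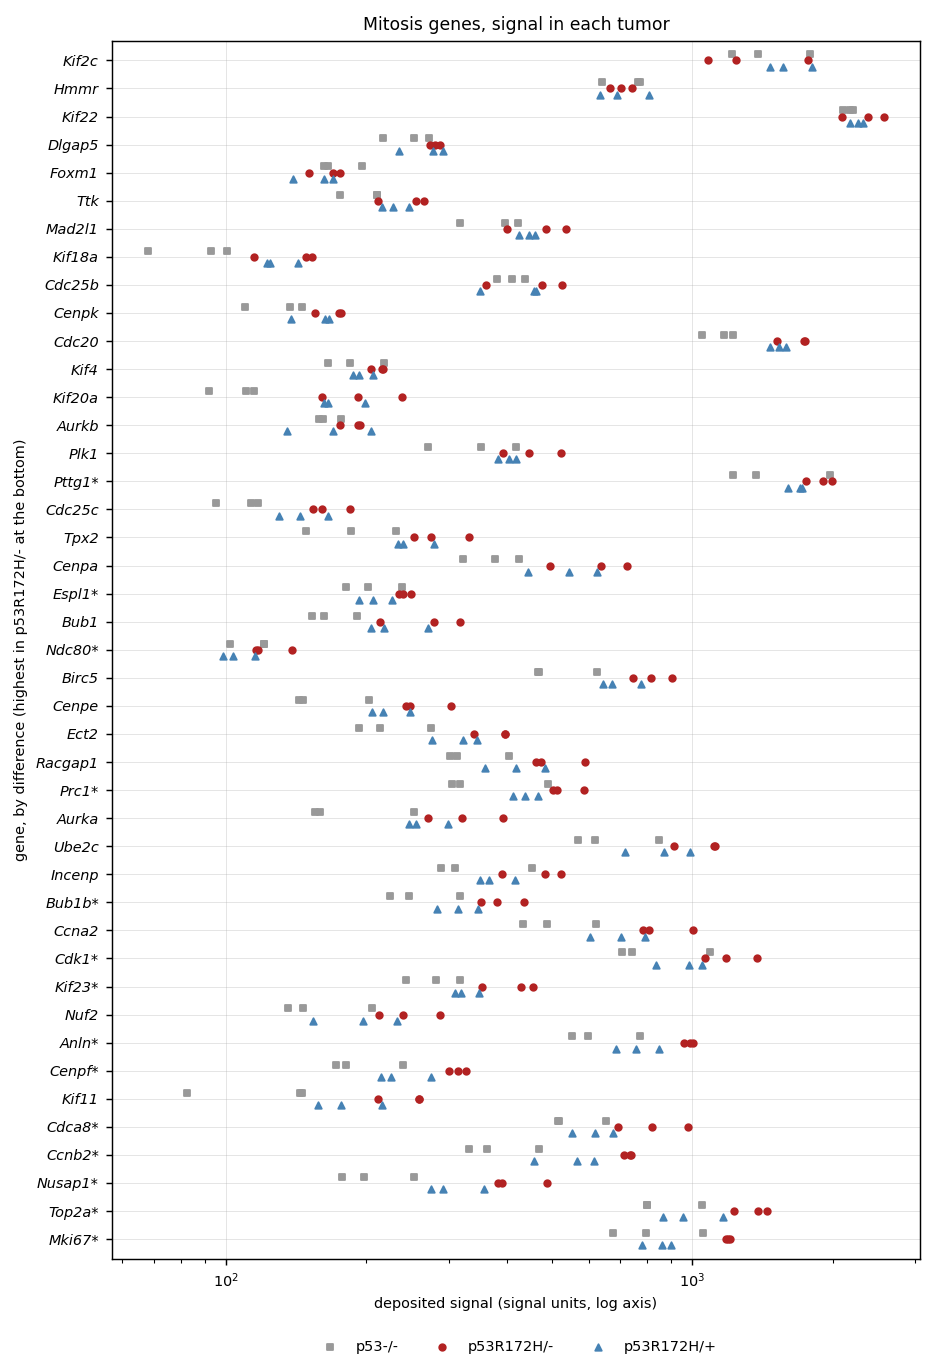
Deposited signal of the 43 measured mitosis genes in each of the 9 tumors (signal units, log axis), ordered by log2 difference with the highest at the bottom. Grey squares are p53-/-, red circles p53R172H/- and blue triangles p53R172H/+ tumors, and an asterisk marks the 14 genes whose mutant groups do not overlap. For Mki67 the p53R172H/- tumors lie at 1180 to 1205 and the p53R172H/+ tumors at 778 to 900. Levels of different genes are not comparable.

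Collagen genes were lower in the p53R172H/- tumors. Of 20 measured fibrillar and associated collagens, 18 were lower on average, where 52.0% of all genes were, and 13 were lower without overlap (65%, against 6.62% of all genes) and 0 higher. The list's median log2 difference was -0.70, against -0.01 over all genes. The mean log2 signal of the list was 8.91, 8.83 and 9.01 in p53R172H/- tumors and 9.56, 9.63 and 9.35 in p53R172H/+ tumors, without overlap. The p53-/- tumors, at 9.43, 9.22 and 9.56, lay at the level of the p53R172H/+ tumors, and the medians against p53-/- were -0.59 for p53R172H/- and -0.06 for p53R172H/+ tumors.

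The collagens of thin and mixed fibrils came first. Col11a1, a minor fibrillar collagen that often marks activated tumor stroma, was at 81.8, 68.4 and 77.0 signal units in p53R172H/- tumors and at 138, 207 and 193 in p53R172H/+ tumors. It had the smallest p of all genes, with a 2.34-fold lower level (log2 difference -1.23 ± 0.17 SE, adjusted p = 0.452, limma), and the p53-/- tumors lay between the mutant groups at 107, 129 and 119. Its mean over the tumors, 116 signal units, was just above the 113 below which genes were dropped. All its p53R172H/- values were below that limit, so it was tested only through its levels in the other groups. Another of its probe sets, dimmer still at a mean of 95.6, gave -0.90. Col5a1, a chain of the type V collagen that starts fibrils, was at 708, 552 and 610 against 1469, 1582 and 943 (-1.07 ± 0.22 SE). Col5a2, its partner chain, was at 1198, 1199 and 1602 against 2790, 2813 and 1969 (-0.92 ± 0.23 SE). For both, p53R172H/+ tumor 3 was the nearest to the p53R172H/- tumors. Col12a1, a fibril-associated collagen, showed the largest difference of any gene lower without overlap, at 513, 496 and 707 against 1711, 1961 and 1169 (2.79-fold, -1.48 ± 0.35 SE). Its p53-/- tumors, at 347, 194 and 551, overlapped the p53R172H/- tumors, and of its 3 other probe sets 1 was at -1.08 and the dim ones at 0.00 and -0.05.

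The abundant fibrillar collagens followed the same order with smaller differences. Col1a1, a chain of type I collagen, was at 2247, 1587 and 2330 signal units against 3549, 4358 and 2601 (1.69-fold lower, -0.76 ± 0.22 SE). Col1a2, the other chain, was at 3302, 3347 and 3916 against 5912, 6802 and 4296 (-0.67 ± 0.18 SE). Col3a1, the type III collagen gene, was at 5820, 6787 and 7795 against 9756, 10220 and 8219 (-0.47 ± 0.16 SE). In all of these the p53R172H/- tumors were below the p53R172H/+ tumors, and by little against tumor 3 of that group. The 3 measured chains of type VI collagen, which forms beaded filaments around cells, were at -0.80 ± 0.24 (Col6a1), -0.75 ± 0.19 (Col6a2) and -0.82 ± 0.23 (Col6a3, SE), all without overlap. So were Col5a3 (-0.78 ± 0.21 SE), Col16a1 (-0.43 ± 0.12 SE) and Col18a1 (-0.44 ± 0.13 SE), which holds the endostatin sequence. The 2 members higher on average, Col14a1 (0.20 ± 0.52 SE) and Col8a2 (0.05 ± 0.18 SE), overlapped widely, and both other probe sets of Col14a1 were lower.

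With 1 tumor left out in turn, 17 to 20 of the 20 collagens were lower, and the median ran from -0.87 to -0.55. Of them 13 to 16 were lower without overlap, where 6.62% to 13.3% of all genes were. Leaving out a p53-/- tumor cannot change these counts, and the 16 came without p53R172H/- tumor 1 (12.4% of all genes then). Without p53R172H/- tumor 1 and p53R172H/+ tumor 2 together, 18 were lower, 16 without overlap (18.0% of all genes then), and the median was -0.60.

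**Figure D3:**
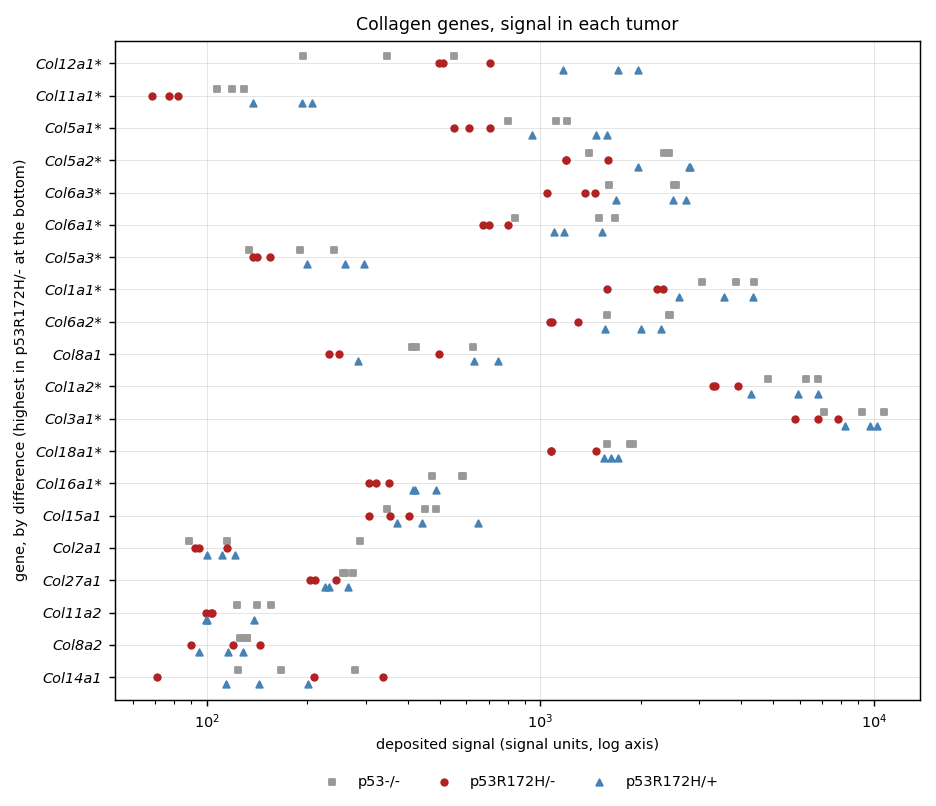
Deposited signal of the 20 measured fibrillar and associated collagen genes in each of the 9 tumors (signal units, log axis), ordered by log2 difference with the highest in p53R172H/- tumors at the bottom. Grey squares are p53-/-, red circles p53R172H/- and blue triangles p53R172H/+ tumors, and an asterisk marks the 13 genes whose mutant groups do not overlap. For Col11a1 the p53R172H/- tumors lie at 68.4 to 81.8 and the p53R172H/+ tumors at 138 to 207.

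Of 26 noncollagen matrix and fibroblast genes, 18 were lower in p53R172H/- tumors, 9 of them without overlap (34.6%, against 6.62% of all genes). The other 8 were higher. The mean log2 signal of this list was 8.55, 9.40 and 9.54 in p53R172H/- tumors and 9.46, 9.26 and 9.55 in p53R172H/+ tumors, so that p53R172H/- tumor 1 was low and the others lay within the p53R172H/+ range. Its median was -0.27, but -0.16 without p53R172H/- tumor 1 and -0.08 without that tumor and p53R172H/+ tumor 2. It was -0.35 without p53R172H/- tumor 3, where 25 of 26 members were lower, -0.37 without p53R172H/- tumor 2, where 22 were, and -0.35 without p53R172H/+ tumor 2, where 23 were. In a fit with the mean of the muscle list as a covariate, all 26 members were lower and the median was -0.61. The part of stromal content in the collagen result was not tested, and in whole tumors fewer cells of a type and less RNA per cell cannot be told apart.

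The matrix genes of this list that were lower resembled the collagens. Thbs2, the matrix glycoprotein thrombospondin 2, was at 211, 205 and 269 signal units against 595, 758 and 357 (-1.26 ± 0.29 SE). Sparc, a collagen-binding glycoprotein, was at 5461, 4903 and 4752 against 7351, 7411 and 6395 (-0.48 ± 0.12 SE). Lum, the small proteoglycan lumican, was at 422, 500 and 760 against 1821, 1345 and 745 (-1.17 ± 0.33 SE), and here the groups overlapped through tumor 3 of each. Pdgfrb, a growth factor receptor of fibroblasts and pericytes, was at 304, 423 and 483 against 612, 591 and 695 (-0.67 ± 0.20 SE), without overlap. Dcn and Pdgfra, general fibroblast genes named after their values were seen, varied widely within the genotypes. Dcn, the proteoglycan decorin, was at 1207, 6349 and 5253 against 3533, 1755 and 4622 (0.16 ± 0.71 SE, but -0.89 with the muscle covariate and -0.28 without p53R172H/- tumor 2). Pdgfra, a receptor of most fibroblasts, was at 146, 567 and 541 against 358, 348 and 563 (-0.21 ± 0.62 SE).

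**Figure D4:**
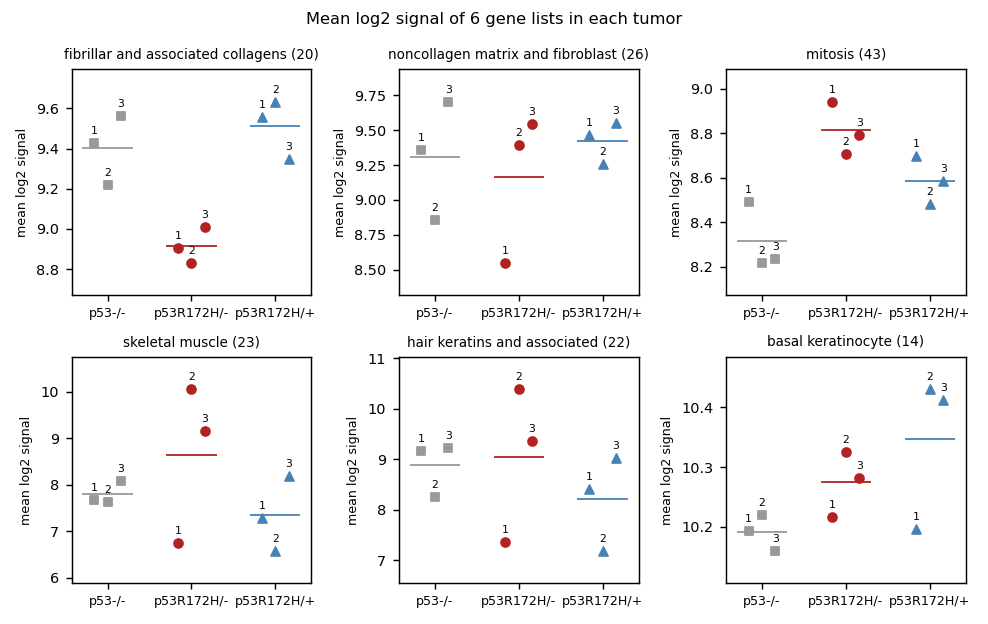
Mean log2 signal of 6 gene lists in each tumor, with the tumor number above each point and a line at the group mean; the number of genes is in brackets and each panel has its own axis. The collagen list separates the p53R172H/- tumors (8.83 to 9.01) from the p53R172H/+ tumors (9.35 to 9.63), while the noncollagen, muscle, hair and basal keratinocyte lists overlap.

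Genes around the collagens gave a mixed picture. Of 19 measured basement membrane genes, 16 were lower and 7 of them without overlap (36.8%, against 6.62% of all genes). The list's median was -0.25, and -0.16 without p53R172H/+ tumor 2. Without p53R172H/+ tumor 1, 11 members were lower without overlap (13.3% of all genes then). Col4a1, a chain of the type IV collagen network, was at 1351, 1052 and 1091 signal units against 1740, 2232 and 1595 (-0.67 ± 0.18 SE). Col7a1, which anchors epithelium to stroma, was at 611, 378 and 463 against 796, 1208 and 631 (-0.84 ± 0.27 SE). Hspg2, the heparan sulfate proteoglycan perlecan, was at 432, 501 and 475 against 525, 614 and 699 (-0.38 ± 0.12 SE), with another probe set at 0.09.

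Of 16 genes of collagen folding and crosslinking, 10 were lower and 6 higher. In each direction 2 were without overlap (12.5%, against 6.62% lower and 5.27% higher of all genes). Pcolce2, an enhancer of procollagen processing, ran against the collagens at 325, 438 and 519 signal units against 241, 297 and 210 (0.76 ± 0.21 SE). Serpinh1, the collagen chaperone of the endoplasmic reticulum, was lower without overlap (-0.47). Gpx7, a peroxidase of the endoplasmic reticulum and outside that list, was among the genes with the smallest p, at 102, 128 and 118 against 192, 163 and 190 (-0.65 ± 0.12 SE).

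Of 20 matrix protease and plasminogen genes, 11 were lower, 3 without overlap (15%, against 6.62% of all genes). The other 9 were higher, 1 without overlap (5%, against 5.27%). Mmp13, a collagenase, was at 299, 618 and 518 signal units in p53R172H/- and at 1104, 964 and 727 in p53R172H/+ tumors (-1.01 ± 0.57 SE). It was lowest in the p53-/- tumors, at 276, 52.3 and 254. Adamts1, a protease that cleaves proteoglycans, was higher without overlap at 344, 460 and 367 against 326, 145 and 280 (0.71 ± 0.34 SE). Of 19 TGF-beta pathway genes 12 were lower and 7 higher, with a median of -0.04. Of 19 genes of epithelial-mesenchymal transition 16 were lower, 1 of them without overlap (5.26%, under the 6.62% of all genes). That gene was Cdh11, a mesenchymal cadherin, at 136, 220 and 209 against 437, 356 and 266 (-0.91 ± 0.28 SE). Its other probe set lay at the floor of 52.6 signal units, so that its difference of 0.00 carries no information. Acta2, the smooth muscle actin of myofibroblasts, was at 2576, 2029 and 2032 against 2127, 2501 and 2025 (-0.01 ± 0.12 SE).

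Known p53 target genes differed little. Of 40 measured, 29 were lower in p53R172H/- tumors, 6 of them without overlap (15%, against 6.62% of all genes), and 11 higher, 0 without overlap. The list's median was -0.08. This rested partly on p53R172H/- tumor 1, since without it 21 members were lower and 19 higher, with a median of -0.01. The count lower without overlap was 12 without p53R172H/- tumor 3 (11.6% of all genes then) or without p53R172H/+ tumor 1 (13.3%). Without p53R172H/- tumor 1 and p53R172H/+ tumor 2, 8 were higher and 6 lower without overlap (20.3% and 18.0% of all genes then). Against p53-/- tumors the median was -0.13 for p53R172H/- and -0.04 for p53R172H/+ tumors.

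Cdkn1a, which encodes p21, was at 2354, 2151 and 2256 signal units in p53R172H/- tumors and at 2737, 2512 and 2617 in p53R172H/+ tumors. The groups did not overlap and differed 1.16-fold (-0.22 ± 0.10 SE, adjusted p = 0.949, limma), with the other probe set at 0.04. The p53-/- tumors, at 2249, 2727 and 2855, overlapped both groups. Plk3, a stress-responsive polo-like kinase, had the smallest p of the list, at 581, 605 and 665 against 935, 964 and 777 (-0.53 ± 0.14 SE). Zmat3, an RNA-binding protein and one of the steadiest p53 targets, was at 633, 756 and 744 against 827, 1073 and 947 (-0.41 ± 0.13 SE), with the p53-/- tumors at 876, 1092 and 1040. For both genes the p53R172H/+ and p53-/- tumors overlapped and the p53R172H/- tumors lay below them. Dcxr, a carbonyl reductase, was at 183, 202 and 216 against 215, 294 and 278 (-0.38 ± 0.16 SE). It was highest in the p53-/- tumors, at 299, 435 and 357.

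The remaining members without overlap were Plk2, another polo-like kinase (-0.32 ± 0.14 SE, another probe set at 0.06), Sesn2, a stress-induced regulator of mTORC1 (-0.16 ± 0.15 SE), and Perp, a desmosome protein of stratified epithelium (-0.10 ± 0.05 SE). Mdm2, the ubiquitin ligase that degrades p53, was at 660, 541 and 637 signal units against 714, 730 and 568, with overlapping groups (-0.13 ± 0.12 SE). Ccng1, which encodes cyclin G1, was at 703, 942 and 916 against 814, 1040 and 1052 (-0.19 ± 0.18 SE). Both direct targets thus differed by about their standard error. Bbc3, the gene of the death factor PUMA, was too dim to be tested. Gadd45b, a stress-response gene related to the p53 target Gadd45a, was among the 12 lower genes with the smallest p, at 485, 505 and 535 against 810, 667 and 720 (-0.52 ± 0.11 SE).

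**Figure D5:**
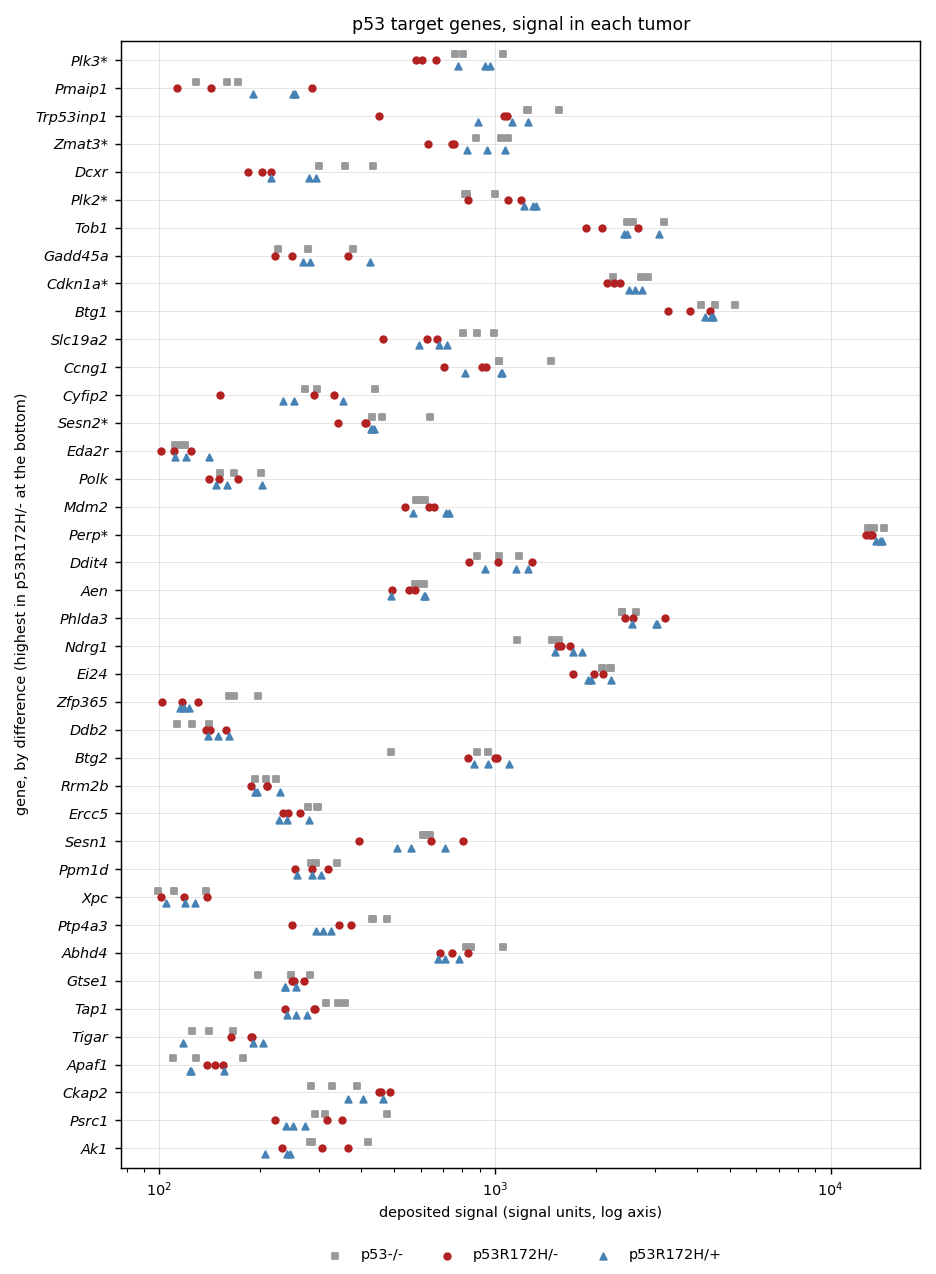
Deposited signal of the 40 measured p53 target genes in each of the 9 tumors (signal units, log axis), ordered by log2 difference with the highest in p53R172H/- tumors at the bottom. Grey squares are p53-/-, red circles p53R172H/- and blue triangles p53R172H/+ tumors, and an asterisk marks the 6 genes whose mutant groups do not overlap. For Plk3 the p53R172H/- tumors lie at 581 to 665 and the p53R172H/+ tumors at 777 to 964.

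Genes of the unfolded protein response were mostly higher in p53R172H/- tumors. Of 24 measured, 20 were higher on average, 6 of them without overlap (25%, against 5.27% of all genes), and 0 were lower without overlap. The differences were small, with a list median of 0.09, and the list's mean signal did not overlap between the groups. Calr, the calcium-binding chaperone calreticulin, was at 3323, 3190 and 3440 signal units against 2655, 2953 and 2127 (0.38 ± 0.12 SE). Hsp90b1, the endoplasmic HSP90, was at 3675, 2994 and 3173 against 2851, 2570 and 2433 (0.32 ± 0.11 SE). Hspa5, the chaperone BiP, was at 6234, 4532 and 4892 against 4357, 4408 and 3727 (0.32 ± 0.15 SE), with other probe sets at 0.31 and -0.04. These 3 chaperones were without overlap between the groups. Chac1, a glutathione-degrading enzyme induced by ATF4, was at 571, 882 and 529 against 506, 402 and 402 (0.57 ± 0.22 SE).

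Of 12 heat shock genes 7 were higher, 3 without overlap (25%, against 5.27% of all genes). The other 5 were lower, 1 without overlap (8.33%, against 6.62%). Hsph1, a cofactor of HSP70, was at 615, 567 and 538 signal units against 475, 383 and 431 (0.42 ± 0.11 SE). Hspd1, the mitochondrial chaperonin (0.20 ± 0.09 SE), and Hsp90aa1, the stress-inducible HSP90 (0.18 ± 0.07 SE), were the others, and 6 members were higher without overlap when p53R172H/+ tumor 1 was left out (9.54% of all genes then). Hspb8, a small heat shock protein outside that list, was at 1474, 1789 and 1306 against 1119, 993 and 953 (0.57 ± 0.12 SE). Its p53-/- tumors, at 1479, 1453 and 1574, were at the p53R172H/- level.

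Cholesterol synthesis was a further group with members higher in p53R172H/- tumors. Of 26 cholesterol and fatty acid synthesis genes, 21 were higher, 5 without overlap (19.2%, against 5.27% of all genes). Lower without overlap were 0, and the median was 0.07. Cyp51, the lanosterol demethylase, was at 2578, 2125 and 2555 signal units against 1811, 1828 and 1665 (0.45 ± 0.10 SE). Idi1, the isopentenyl diphosphate isomerase, was at 2788, 2499 and 2784 against 2216, 2239 and 1919 (0.34 ± 0.09 SE, another probe set at 0.05). Nsdhl, a sterol dehydrogenase, was at 1212, 1062 and 1730 against 1058, 1050 and 875 (0.40 ± 0.18 SE), and tumor 3 of each group carried most of that difference. Lbr, a lamin B receptor that is also a sterol reductase and is outside that list, was at 1372, 1601 and 1540 against 1183, 1102 and 1124 (0.40 ± 0.10 SE). The list's median was 0.13 without p53R172H/- tumor 1, where 12 members were without overlap (15.2% of all genes then), and 0.04 without p53R172H/- tumor 3.

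NRF2 target and glutathione genes were lower on average. Of 25 measured, 21 were lower, 3 of them without overlap (12%, against 6.62% of all genes). The list's median was -0.19, but -0.04 without p53R172H/+ tumor 2 and -0.10 without p53R172H/- tumor 2. The count without overlap was 9 without p53R172H/- tumor 1 (12.4% of all genes then) and 7 without p53R172H/+ tumor 3 (10.4%). Hmox1, the heme oxygenase, was at 553, 636 and 726 signal units against 805, 1015 and 1158 (-0.63 ± 0.18 SE). The p53-/- tumors, at 526, 592 and 792, were at the p53R172H/- level. Gsta2, a glutathione transferase, was at 315, 338 and 466 against 479, 630 and 708 (-0.70 ± 0.32 SE), while Gstm2, another transferase, was at 591, 920 and 665 against 446, 301 and 674 (0.67 ± 0.27 SE).

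ERK output and immediate-early genes, which read out Ras signalling, were close to even. Of 20 ERK output and feedback genes, 11 were higher and 9 lower, with a median of 0.01. Of these, 2 were lower without overlap (10%, against 6.62% of all genes). Spry2, a feedback inhibitor of receptor tyrosine kinases, was at 273, 294 and 345 signal units against 391, 376 and 392 (-0.35 ± 0.12 SE), with the p53-/- tumors below both at 176, 213 and 204. Ereg, the EGF receptor ligand epiregulin, was at 866, 917 and 972 against 1222, 1525 and 1125 (-0.48 ± 0.15 SE). Both were lower without overlap. Of 20 immediate-early genes, 12 were higher, 2 without overlap (10%, against 5.27% of all genes). These were Fos, at 998, 1021 and 889 against 539, 752 and 845 (0.47 ± 0.24 SE), and Dusp1, a phosphatase of MAP kinases. Dusp1 was at 3642, 4512 and 3327 against 2510, 3043 and 3279 (0.38 ± 0.18 SE).

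The epithelial lists showed no common direction. Of 14 basal keratinocyte genes 6 were higher and 8 lower, 0 without overlap. Of 22 suprabasal keratin and desmosome genes 6 were higher, 1 without overlap (4.55%, against 5.27% of all genes). The other 16 were lower, 3 without overlap (13.6%, against 6.62%). Dsg1a, a desmoglein of upper layers, was at 4850, 4968 and 5117 signal units against 5634, 5840 and 5739 (-0.20 ± 0.08 SE). Krt80, a keratin of differentiating cells, was at 3728, 3416 and 3595 against 3286, 3111 and 2965 (0.20 ± 0.07 SE). Both differences were steady over the tumors and small. Of 25 cornified envelope genes 12 were higher and 13 lower, among them Lce3c at 12479, 9601 and 9139 against 14090, 12625 and 13935 (-0.39 ± 0.11 SE).

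Antigen presentation genes were higher in 12 of 14 cases, 2 of them without overlap (14.3%, against 5.27% of all genes), with a median of 0.27. H2-K1, a class I heavy chain, was at 3268, 3333 and 3856 signal units against 2382, 2347 and 3016 (0.44 ± 0.22 SE), and H2-D1, another, was at 4189, 4239 and 4821 against 3123, 3175 and 3762 (0.40 ± 0.20 SE, with 8 other probe sets between -0.28 and 0.50). These genes are close relatives whose probes may detect each other's transcripts. The median was 0.43 without p53R172H/- tumor 1, where 11 members were higher without overlap (15.2% of all genes then), 0.15 without p53R172H/- tumor 3 and 0.10 without p53R172H/+ tumor 2. Interferon response genes were even, at 6 higher and 6 lower of 12.

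Markers of other cell types overlapped for the most part. Pecam1 of endothelium was at 274, 304 and 261 signal units against 314, 315 and 224 (-0.01 ± 0.23 SE). Of 19 endothelial genes 15 were lower, 5 without overlap (26.3%, against 6.62% of all genes). Without p53R172H/- tumor 1, 8 of them were lower and 11 higher. Aplnr, the apelin receptor of growing vessels and outside that list, was among the genes with the smallest p, at 163, 176 and 156 against 487, 442 and 248 (-1.19 ± 0.25 SE). Ptprc, the leukocyte antigen CD45, was at 282, 496 and 617 against 601, 574 and 344 (-0.15 ± 0.40 SE). Of 21 macrophage and monocyte genes 14 were lower, 1 without overlap (4.76%, under the 6.62% of all genes). Of 18 neutrophil and alarmin genes 10 were lower, 0 without overlap. Neither list separated the groups. Of 23 skeletal muscle genes 21 were higher, with a median of 1.81 (0.77 without p53R172H/- tumor 2, and 2.98 with 18 without overlap without p53R172H/- tumor 1, where 15.2% of all genes were), yet Myh4, a fast myosin, was at 24.1, 4099 and 1426 against 28.8, 23.1 and 206 (3.03 ± 1.35 SE on the floored scale). Casq1, a calcium store protein of muscle, was the only member of that list without overlap, at 192, 316 and 223 against 150, 171 and 159 (0.58 ± 0.17 SE). Hair keratin and associated genes were higher in 20 of 22 cases with a median of 0.98 and 0 without overlap. Their median was 0.17 when p53R172H/- tumor 2 was left out and 0.29 when p53R172H/+ tumor 2 was. When p53R172H/- tumor 1 was left out it was 1.87, with 19 members higher without overlap (15.2% of all genes then). With the muscle covariate 20 of the 22 were lower, with a median of -0.32.

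Among the 12 genes with the smallest p in the higher direction, Glul led. Glul, the glutamine synthetase, was at 3561, 3668 and 3622 signal units in p53R172H/- tumors and at 1548, 2411 and 2253 in p53R172H/+ tumors (1.78-fold, 0.83 ± 0.17 SE, adjusted p = 0.916, limma), and its other probe set gave 0.87. The p53-/- tumors, at 2523, 2074 and 2838, were below the p53R172H/- tumors and overlapped the p53R172H/+ tumors. Mndal, a DNA-binding protein of the interferon-inducible p200 family, was at 363, 331 and 304 against 146, 174 and 203 (0.94 ± 0.19 SE), but its other probe set, dim at a mean of 89.5 signal units, was at -0.06. C1galt1, the synthase of core O-glycans, was at 367, 366 and 267 against 189, 200 and 190 (0.77 ± 0.17 SE). Its p53-/- tumors, at 315, 243 and 368, were above the p53R172H/+ tumors. The others, besides Hspb8, Cyp51, Lbr, Idi1 and Hsph1, were Magt1, a subunit of oligosaccharyl transfer (0.33 ± 0.09 SE), Eprs, a transfer RNA synthetase (0.30 ± 0.07 SE, other probe sets at 0.06, 0.04 and 0.01), Dnajc9, a histone chaperone (0.30 ± 0.08 SE), and Hnrnpa2b1, an RNA-binding protein (0.35 ± 0.09 SE, 1 of 3 other probe sets at -0.04).

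The only gene higher by more than 1 without overlap was Rpgrip1, known from photoreceptor cilia. It was at 1494, 870 and 1615 signal units against 678, 658 and 47.1 (2.16 ± 0.87 SE), a difference set largely by p53R172H/+ tumor 3. Its 3 other probe sets, dim at means of 66.4, 76.2 and 55.7 signal units, were at -0.08, -0.03 and 0.04.

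Among the 12 genes with the smallest p in the lower direction, besides Col11a1, Col5a1, Gpx7, Gadd45b and Aplnr, was Sfrp2, a secreted regulator of WNT signalling in stroma. It was at 161, 198 and 185 signal units against 390, 624 and 326 (-1.25 ± 0.27 SE), with the p53-/- tumors at 484, 315 and 597. Tnn, the matrix protein tenascin N, was at 332, 197 and 152 against 457, 940 and 382 and was among the largest differences without overlap (-1.35 ± 0.44 SE). Both belong with the collagens in their order, lowest in all p53R172H/- tumors except for Tnn in p53-/- tumor 2. Lrrc20 was at 665, 653 and 725 against 1038, 939 and 915 (-0.50 ± 0.08 SE), with p53-/- tumors at 932, 956 and 950. Bloc1s2, a subunit of a lysosome biogenesis complex, was at 699, 656 and 849 against 1123, 1153 and 1071 (-0.61 ± 0.12 SE). Lrrc20 thus set the p53R172H/- tumors apart from both other groups, and Bloc1s2 the p53R172H/+ tumors. The rest were Nudt5, a nucleotide hydrolase (-0.51 ± 0.10 SE, another probe set at 0.01), Pknox1, a homeobox gene (-0.78 ± 0.16 SE, its other probe sets at 0.10 and 0.25), Mrpl14, a mitochondrial ribosome protein (-0.56 ± 0.12 SE), and Gpr137b-ps, a pseudogene (-0.47 ± 0.10 SE).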

How the data were processed

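Per the labels' protocols, biotin-labelled cRNA from whole oral tumors was put on Affymetrix arrays. The deposited values are linear signal intensities, which the authors computed with MAS5, per the submitters' processing notes, with no version or scaling stated in the sources used here. Of 45037 non-control probe sets, 34945 carried a single symbol in GEO's platform annotation and were used. Those with several symbols (932) or none (9160) were not. Through their gene identifiers 34741 were found in RefSeq's table of mouse genes.

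Intensities were floored at their 20th percentile (52.6 signal units) and put on the log2 scale, without normalization between arrays. The brightest probe set stood for its gene. Genes dimmer than the median probe set (113 signal units) were dropped, so that 12167 of 18193 were tested, and 0.0758% of their values were floored. Group means were estimated with limma 3.58.1 (R 4.3.3) over the 9 arrays together, with a variance trend, and p-values were adjusted by Benjamini-Hochberg over all tested genes. On simulated data, with 200 of 12167 genes changed in 20 sets, the fit recovered 88.8% of 2-fold and 98.7% of 4-fold changes in this comparison, and 4.85% of its calls were false. The simulated noise was drawn independently for each gene, while in the tumors muscle and hair genes varied together. These rates therefore do not tell how many real 2-fold differences would be found. In the tumors 100 genes had an absolute log2 difference over 1, and 0 genes were called. The number of arrays limits the precision, and no 2 arrays held identical values in more than 0.0421% of probe sets.

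The comparison, its gene lists (39) and the motif were chosen with earlier results of these data known. Genes were named by rule: the 12 with the smallest p in each direction, the 6 largest differences without overlap in each direction, a few fixed genes (Cdkn1a, Mdm2, Ccng1, Mki67, Ccnd1, Krt5, Col1a1 and Ptprc among them) and, from each list described, at most 4 members taken in order of p. Genes named beyond it are the members of a list without overlap, the mitosis genes lower on average (Kif2c and Hmmr), the collagens, Dcn and Pdgfra. As the targeted gene is not reported here, no check of the genotypes against it was made. Promoter motifs were counted in RefSeq windows (GRCm38.p6).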

Additional observations from a re-analysis of the deposited data

How the results depend on the processing

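With limma 0 genes passed an adjusted p of 0.05 under any of 22 alternatives, where the lowest adjusted p was 0.0955, without p53R172H/+ tumor 1. The share of genes at an unadjusted p under 0.05 was 8.71% with the muscle list as a covariate and 3.53% to 7.69% under the others. The stricter filter, which tests fewer genes, left 408 genes higher and 511 lower without overlap. Leaving out 1 tumor makes separation easier by its construction, and gave 641 to 1845 genes higher and 806 to 1615 lower, and 2475 and 2191 without both p53R172H/- tumor 1 and p53R172H/+ tumor 2. The collagen median was -0.54 with the muscle covariate and -0.87 to -0.55 with 1 tumor left out, and the mitosis median was 0.091 without those 2 tumors. Whether the tumor numbers pair the samples is not known. Deviations of same-numbered mutant tumors from their group means correlated at -0.01, -0.50 and 0.20, and 1 of 3 was closest to its own number. This cannot decide the question, since with 3 tumors per group the deviations depend on each other. With the number as a replicate block 0 genes passed, and 5.14% had an unadjusted p under 0.05.

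Of 105 genes followed, 91 kept their sign throughout. The other 14 reversed under at least 1 alternative. With the mean of all probe sets Acta2 was at 0.014, Col14a1 at -0.078, Hmmr at 0.29, Kif2c at 0.024, Krt14 at 0.018 and Ptprc at 0.013. With the muscle covariate Acta2 was at 0.16, Ccnd1 at 0.23, Col14a1 at -0.48, Col8a2 at -0.19, Dcn at -0.89, Krt14 at 0.037, Mdm2 at 0.0025 and Pecam1 at 0.0027. With the RNA integrity covariate Acta2 was at 0.015, Hmmr at 0.0021 and Pecam1 at 0.057. Without p53R172H/- tumor 1 and p53R172H/+ tumor 2, Ccng1 was at 0.0051, Krt5 at -0.014, Pdgfra at 0.30, Pecam1 at 0.086 and Ptprc at 0.28. With 1 tumor left out ranges crossed 0 for Acta2 (-0.12 to 0.083), Ccnd1 (-0.23 to 0.11), Col14a1 (-0.29 to 0.84), Col8a2 (-0.12 to 0.23), Dcn (-0.28 to 0.92), Hmmr (-0.085 to 0.087), Krt14 (-0.061 to 0.0063), Krt5 (-0.046 to 0.085), Pdgfra (-0.55 to 0.43), Pecam1 (-0.17 to 0.073) and Ptprc (-0.41 to 0.17). The cause was not tested.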

Other observations

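The remaining gene lists are described by the same counts. Of 35 respiratory chain genes 23 were higher in p53R172H/- tumors and 12 lower, with 3 without overlap in each direction (8.57%). Of 33 proteasome genes 15 were higher and 18 lower, with 1 without overlap in each direction (3.03%). Over all genes these shares were 5.27% higher and 6.62% lower. The proteasome genes without overlap were Psmd1, a subunit of the regulatory particle, at 2807, 2611 and 2657 signal units in p53R172H/- tumors and at 2547, 2345 and 2214 in p53R172H/+ tumors (0.19 ± 0.11 SE), and Psmb2, a subunit of the core. Psmb2 was at 1705, 1594 and 1746 signal units in p53R172H/- tumors and at 2089, 2044 and 2066 in p53R172H/+ tumors (-0.30 ± 0.12 SE), and the p53-/- tumors were at 1421, 1198 and 1734. Of 24 hypoxia and glycolysis genes 10 were higher and 14 lower, and of 17 circadian clock genes 11 were higher and 6 lower. Each list had 1 member higher without overlap (4.17% and 5.88%, against 5.27% of all genes). Of 28 WNT and Notch genes 16 were lower, 5 without overlap (17.9%, against 6.62% of all genes). Among these 5 was the receptor gene Notch1 at 522, 685 and 704 signal units against 743, 876 and 737 (-0.31 ± 0.14 SE).

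Of 11 smooth muscle and myofibroblast genes 7 were lower, 2 without overlap (18.2%, against 6.62% of all genes). Of 6 bone and cartilage genes 3 were lower and 3 higher. All 6 measured salivary gland genes were lower, with a median of -0.11 and 0 without overlap. Of 6 mast cell genes 5 were higher, 0 without overlap. Of 9 genes of T, NK and B cells 6 were higher, 1 without overlap (11.1%, against 5.27% of all genes). Of 10 Schwann and nerve genes 7 were higher and of 8 adipocyte genes 5, with 0 without overlap in either list. Egr2, an immediate-early gene also listed for Schwann cells, was at 423, 1205 and 845 signal units against 471, 158 and 339, with overlapping groups (1.37 ± 0.52 SE). Tyrobp, a signalling adaptor of myeloid cells, was at 557, 760 and 801 against 982, 887 and 1008 (-0.46 ± 0.15 SE), without overlap.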
